A study of Mus musculus with 10 samples.

Results

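The tumor libraries described here address which transcripts of MC38 tumors differ when aPD-1, an antibody that blocks the T cell checkpoint receptor PD-1, is given alone: 2 tumors of the aPD-1 group (replicates 3 and 4) and 2 of the untreated control group (replicates 3 and 5), of 10 tumors sequenced in all. The members were taken by their treatment labels, not by any measured value. MC38 is a mouse colon carcinoma line. It was grown under the skin of the right flank of wild-type female C57BL/6 mice, and whole tumors were fixed in formalin, embedded in paraffin and sequenced. The other 6 tumors came from mice given the IDO1 inhibitor YH29407 (3 tumors) or YH29407 and aPD-1 together (3 tumors). The labels call the control mice untreated, whereas the study describes a vehicle for its control group. Each library is taken to be 1 tumor of 1 mouse. The p-values and standard errors rest on a spread between tumors estimated over all 10 libraries, not over these 2 groups alone.

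PD-1 is carried by activated T cells, and its ligands PD-L1 and PD-L2 are carried by tumor cells, macrophages and dendritic cells. Ligand binding recruits phosphatases that dampen signaling from the T cell receptor and CD28, and an antibody that blocks PD-1 releases this restraint. Activated T cells secrete interferon gamma, which induces antigen presentation genes, T cell-attracting chemokines and PD-L1 itself. Type I interferons induce an overlapping set of antiviral genes. In whole tumors, a transcript that is less abundant may come from fewer cells of a type or from less RNA per cell, and the 2 cannot be told apart here.

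In aPD-1 tumors, T cell identity transcripts were slightly more abundant, while cytotoxic and interferon gamma response transcripts were not set apart. Type I interferon response genes were lower, to an extent that depended on 1 control tumor. No single gene passed the adjusted threshold. Libraries of the 4 tumors held 63984855 to 74478232 counts, and 21523 of 45777 genes had enough counts to be tested. With edgeR's quasi-likelihood test and Benjamini-Hochberg adjustment, 0 genes (0.0%) had an adjusted p under 0.05, and the smallest adjusted p was 0.117, shared by 2 genes. The adjusted p of the other 21521 genes was 1. At an unadjusted p under 0.05 there were 583 genes, of which 299 were higher (1.39%) and 284 lower (1.32%). With a fold of at least 2 as well, 244 genes were higher (1.13%) and 224 lower (1.04%). The other tools called between 0 and 673 genes: DESeq2 called 55 when fitted to the 10 libraries and 673 when fitted to these 4, and limma-voom 0. On log2(FPKM + 1) limma called 1, and on log2(FPKM + 0.1) it called 0. Both aPD-1 libraries lay above both control libraries for 4507 genes (20.9%) and below them for 4529 (21.0%). The median absolute log2 difference across genes was 0.27 between the control tumors and 0.19 between the aPD-1 tumors. It was 0.27 to 0.30 between a control and an aPD-1 tumor, so the groups stood barely further apart than the controls did from each other. The median log2 fold change over all genes tested was 0.00.

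The tissue was checked against its labels. The vimentin gene Vim had 703 and 742 CPM (read counts scaled to a common library size with TMM factors) in the control tumors and 771 and 785 CPM in the aPD-1 tumors. Epithelial genes that define colon cells were close to absent. The adhesion molecule gene Epcam had at most 0.261 CPM in any of the 4 tumors, and the keratins Krt8 and Krt18 had at most 0.173 CPM and 0.0998 CPM. Krt19, the claudin gene Cldn7 and the intestinal transcription factor gene Cdx2 had 0 counts. The label of a colon cell was therefore not borne out by these markers. Of the 21 tested genes of the MC38 and colon epithelium list, 3 were higher at an unadjusted p under 0.05, against 1.39% of all genes. They were the intestinal stem cell receptor Lgr5, the galectin Lgals4 and the keratin Krt20. Krt20 had 0.682 and 0.285 CPM in the control tumors and 2.66 and 2.07 CPM in the aPD-1 tumors.

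Pdcd1, which encodes PD-1, had 0.852 and 0.413 CPM in the control tumors and 1.35 and 1.5 CPM in the aPD-1 tumors. The groups did not overlap, and the log2 fold change of Pdcd1 was 1.17 (standard error 0.81). Cd274, which encodes PD-L1, had 47.0 and 24.5 CPM in the control tumors against 20.8 and 38.3 CPM with aPD-1, so that each group held 1 high and 1 low tumor. Pdcd1lg2, which encodes PD-L2, had 0.327 and 0.257 CPM against 0.189 and 0.315 CPM. Of the 24 genes of the PD-1 axis and checkpoint receptor list, 12 had positive and 12 negative fold changes, 0 passed an unadjusted p under 0.05, and the median log2 fold change was 0.01, between -0.22 without aPD-1 replicate 4 and 0.25 without control replicate 3. Ctla4, a checkpoint receptor that competes with CD28 for its ligands, had 1.8 and 0.456 CPM against 1.10 and 4.29 CPM and was high in aPD-1 replicate 4 alone. Tigit, another inhibitory receptor, had 1.72 and 2.12 CPM in the control tumors against 2.90 and 2.73 CPM with aPD-1.

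All 24 T cell identity genes were measured, and 23 of them had a positive fold change. In 15 (62.5%) both aPD-1 tumors lay above both control tumors, against 20.9% of all genes, and in 1 (4.17%) both lay below. The median log2 fold change was 0.54, and 0 of the 24 passed an unadjusted p under 0.05. Cd3e, a signaling chain of the T cell receptor complex, had 1.45 and 1.04 CPM in the control tumors and 1.90 and 2.02 CPM in the aPD-1 tumors. Cd8a, the co-receptor of cytotoxic T cells, had 1.86 and 1.8 CPM against 4.06 and 3.22 CPM, a log2 fold change of 0.99 (standard error 1.07). Cd8a did not overlap between the groups, and aPD-1 replicate 3 was the highest of these tumors. Its difference was about as large as its standard error, which rests on the spread over all 10 libraries. That spread includes 0.635 to 8.21 CPM in the YH29407 tumors and 3.99 to 12.7 CPM in the YH29407+aPD-1 tumors. Ubash3a, a negative regulator of T cell receptor signaling, had 0.242 and 0.599 CPM against 0.960 and 1.18 CPM, and it had the smallest p of the list (log2 fold change 1.35, standard error 0.75). Cd6, a T cell surface receptor, had 1.65 and 1.33 CPM against 2.24 and 2.44 CPM. Lef1, a transcription factor of naive and memory T cells that other cells also express, had 14.3 and 15.3 CPM against 22.2 and 19.0 CPM. Cd4 overlapped between the groups, with 1.01 and 0.855 CPM in the control tumors against 0.771 and 1.63 CPM. Without aPD-1 replicate 4, 19 of the 24 fold changes were positive, and the list's median stayed between 0.43 and 0.71 whichever tumor was left out.

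Of the 24 genes of the cytotoxic effector list, 2 (8.33%) lay above and 2 (8.33%) below the control tumors in both aPD-1 tumors. The shares over all genes were 20.9% and 21.0%. The median log2 fold change of the list was 0.10. It turned to -0.31 without aPD-1 replicate 4, with 18 of the 24 genes negative, and was 0.37 without aPD-1 replicate 3. Gzmb, the protease granzyme B of killer cells, had 30.8 and 20.3 CPM in the control tumors and 15.4 and 41.8 CPM in the aPD-1 tumors. Ifng, which encodes interferon gamma, had 0.796 and 0.328 CPM against 0.519 and 0.576 CPM. The aPD-1 tumors thus lay at either end of the controls for Gzmb and between them for Ifng. Ccl3 and Ccl4, chemokines of activated T cells and myeloid cells, were high in control replicate 3 alone: Ccl3 had 36.4 CPM there and 4.58 to 5.09 CPM in the other 3 tumors. In 20 of the 24 cytotoxic genes aPD-1 replicate 4 lay above aPD-1 replicate 3. Natural killer receptors had a median of 0.10, and Ncr1, an activating receptor of natural killer cells, had 2.30 and 2.65 CPM against 2.25 and 2.84 CPM. Klrb1c, which encodes NK1.1, had 1.86 and 2.29 CPM against 4.83 and 6.58 CPM (log2 fold change 1.46, standard error 0.92). Regulatory T cell genes had a median of 0.04, between -0.42 without aPD-1 replicate 4 and 0.38 without control replicate 3. Their defining transcription factor Foxp3 had 2.90 and 1.03 CPM against 1.09 and 1.98 CPM.

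**Figure D1:**
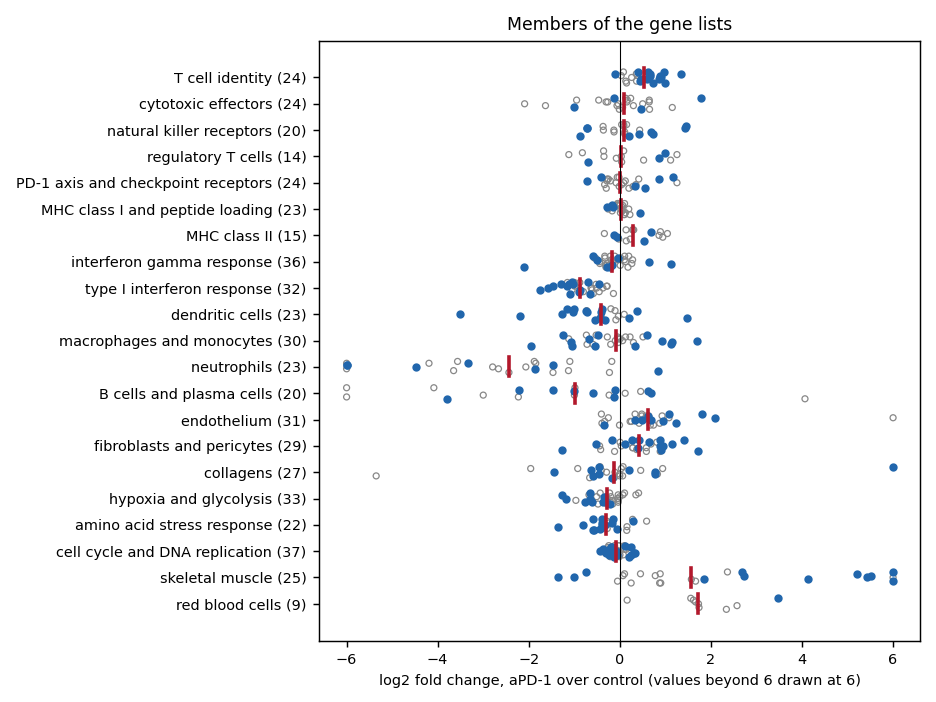
Each point is a gene of a list, placed by its log2 fold change of aPD-1 over control tumors (x axis, edgeR), with the list and its number of tested genes on the y axis. Blue points are genes whose 2 aPD-1 and 2 control libraries did not overlap, open points overlapped, and red bars are medians. The T cell identity median sat at 0.54, the type I interferon median at -0.87 with no gene to the right of 0, and the neutrophil genes spread widest to the left.

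All 32 type I interferon response genes were measured and all 32 had negative fold changes, with a median log2 fold change of -0.87. Both aPD-1 tumors lay below both control tumors for 14 of them (43.8%), against 21.0% of all genes, and above for 0. At an unadjusted p under 0.05, 6 of the 32 were lower, against 1.32% of all genes: Bst2, Oas1a, Oas1g, Oasl2, Irf7 and Oas3. Bst2 encodes tetherin, which holds budding virus at the cell surface, and the Oas genes encode sensors that make oligoadenylates on double-stranded RNA. Oasl2 encodes a relative of these sensors, and Irf7 is the transcription factor that amplifies type I interferon production. The promoters of the 4 of these genes in which a motif of the interferon-stimulated response element was found are shown here because the list's members moved together. They run from the 250th base before the gene's start to the 50th base after it, are given 5′ to 3′ on the gene's strand, and come from RefSeq's GRCm38.p6. Capitals mark GAAANNGAA on either strand, the core of the element:
Bst2 (chr8:71537423-71537722, minus strand): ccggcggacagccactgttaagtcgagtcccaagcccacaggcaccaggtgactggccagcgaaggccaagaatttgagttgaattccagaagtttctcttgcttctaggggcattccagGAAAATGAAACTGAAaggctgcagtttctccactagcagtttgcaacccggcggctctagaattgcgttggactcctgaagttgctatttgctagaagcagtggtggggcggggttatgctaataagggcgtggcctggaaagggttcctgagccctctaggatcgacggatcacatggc
Oas1a (chr5:120907476-120907775, minus strand): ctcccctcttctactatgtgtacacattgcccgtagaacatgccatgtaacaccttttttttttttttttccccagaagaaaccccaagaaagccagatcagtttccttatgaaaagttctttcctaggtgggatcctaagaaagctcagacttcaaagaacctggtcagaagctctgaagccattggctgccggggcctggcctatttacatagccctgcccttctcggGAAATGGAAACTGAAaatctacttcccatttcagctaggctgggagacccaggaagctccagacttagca
Oas1g (chr5:120887564-120887863, minus strand): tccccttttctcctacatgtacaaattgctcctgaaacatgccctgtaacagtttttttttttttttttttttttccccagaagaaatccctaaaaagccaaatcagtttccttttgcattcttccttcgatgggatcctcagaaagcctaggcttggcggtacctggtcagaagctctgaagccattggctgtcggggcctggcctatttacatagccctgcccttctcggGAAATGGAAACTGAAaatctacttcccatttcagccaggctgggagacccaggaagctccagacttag
Oas3 (chr5:120777610-120777909, minus strand): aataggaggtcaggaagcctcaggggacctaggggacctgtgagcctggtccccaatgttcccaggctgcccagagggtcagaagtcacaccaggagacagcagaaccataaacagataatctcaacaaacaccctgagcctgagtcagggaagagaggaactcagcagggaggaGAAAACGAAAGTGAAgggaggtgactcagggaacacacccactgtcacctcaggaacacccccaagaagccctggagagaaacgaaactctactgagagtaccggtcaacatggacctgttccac

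In each of the 4 promoters 2 overlapping matches made 1 run, which began 130 bases before the start in Bst2, 20 in Oas1a, 18 in Oas1g and 75 in Oas3. Oas1a and Oas1g are near-identical copies, and their promoters above show it, so reads may have been split between them and their separate values are uncertain. Of the 32 genes, 23 had a promoter in the RefSeq table, and 16 of these (69.6%) held the motif, as did 1117 of the 14218 promoters of tested genes (7.86%). The interferon gamma response list, whose fold changes were not set apart, held it in 14 of 24 promoters (58.3%). The motif was thus not particular to the type I interferon list. No match was found in the windows of Oasl2 and Irf7. The STAT motif TTCNNNGAA, searched on both strands, was in 4 of the 23 (17.4%) and in 7.29% of the promoters of tested genes. A match is a run of letters and was not tested for binding.

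Bst2 had 138 and 109 CPM in the control tumors and 52.9 and 67.4 CPM in the aPD-1 tumors, a log2 fold change of -1.04 (standard error 0.25). Oas1a had 217 and 118 CPM against 70.8 and 91.0 CPM (log2 fold change -1.05, standard error 0.36). Oasl2 had 221 and 113 CPM against 80.6 and 99.0 CPM (log2 fold change -0.89, standard error 0.36). In all 3 genes control replicate 3 was the highest tumor and the groups did not overlap. The same order held across the list: control replicate 3 was the highest of the 4 tumors for all 32 genes, and aPD-1 replicate 3 the lowest for all 32. Control replicate 3 exceeded control replicate 5 by a median of 1.06 on the log2 scale, and aPD-1 replicate 4 exceeded aPD-1 replicate 3 by 0.56. Without control replicate 3 the list's median was -0.15, with 24 genes negative and 8 positive, and 1 was lower at an unadjusted p under 0.05. Without control replicate 5 the median was -1.24, and 10 passed. The list's median fold change was thus smaller in size than the median gap between the control tumors.

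**Figure D2:**
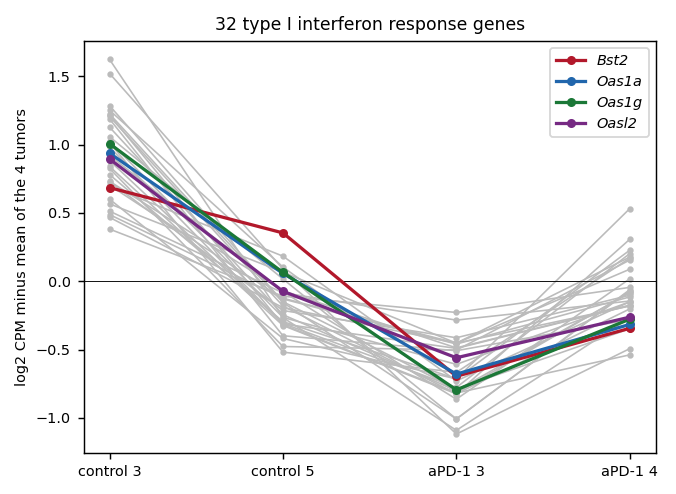
Log2 CPM of the 32 type I interferon response genes (y axis, each gene's value minus its mean over the 4 tumors) in the 2 control and 2 aPD-1 tumors (x axis). Lines join the values of 1 gene, with Bst2, Oas1a, Oas1g and Oasl2 in color. Every line is highest in control replicate 3 and lowest in aPD-1 replicate 3.

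Of the 36 genes of the interferon gamma response list, 11 were positive and 25 negative, the median log2 fold change was -0.18, and 0 passed an unadjusted p under 0.05. Cxcl9, a chemokine that draws T cells, had 55.9 and 17.1 CPM in the control tumors and 40.4 and 47.2 CPM in the aPD-1 tumors, and both aPD-1 tumors fell between the control tumors. Cxcl11, a chemokine for the same receptor, had 21.7 and 7.24 CPM against 1.65 and 5.07 CPM, the lowest fold change of the list (log2 -2.10, standard error 1.15). Control replicate 3 was the highest tumor for 28 of the 36 genes, and without it the median was 0.21.

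Over 23 MHC class I and peptide loading genes the median log2 fold change was 0.02, and H2-K1, a classical class I heavy chain, had 1260 and 1204 CPM against 1176 and 1225 CPM. H2-Q4, which encodes another class I molecule, had 219 and 178 CPM against 244 and 300.0 CPM (log2 fold change 0.45, standard error 0.26). MHC class I genes are near-identical copies, so their separate counts are uncertain. MHC class II genes, which present peptides to CD4 T cells, had a median of 0.28 over 15 genes and were lowest in control replicate 3 for 12 of them. H2-Ab1, a class II chain, had 7.60 CPM in that tumor, 35.1 CPM in control replicate 5, and 32.7 and 44.8 CPM in the aPD-1 tumors. The class II median ran from -0.012 without control replicate 3 to 0.713 without control replicate 5, and in the latter refit 12 of the 15 genes were positive and 4 passed an unadjusted p under 0.05.

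Dendritic cell genes were mostly lower. Of the 23 tested, 19 had negative fold changes, and both aPD-1 tumors lay below both control tumors for 13 (56.5%), against 21.0% of all genes. Both lay above for 3 (13%). The median log2 fold change was -0.41, and it stayed between -0.58 and -0.35 whichever tumor was left out. Of its members, 3 were lower at an unadjusted p under 0.05, against 1.32% of all genes: Bst2, which also counts among the interferon genes, Flt3 and Clec9a. Flt3, a growth factor receptor of dendritic cells and their precursors, had 1.98 and 1.57 CPM in the control tumors and 0.740 and 0.850 CPM in the aPD-1 tumors. Its log2 fold change was -1.15 (standard error 0.35). Clec9a, a receptor for dead cells on cross-presenting dendritic cells, had 0.256 and 0.584 CPM against 0 and 0.0686 CPM. Xcr1, a chemokine receptor of the same cells, had 0.455 and 1.08 CPM against 0.142 and 0.192 CPM. The groups did not overlap for any of these genes. Clec10a, a lectin of another dendritic cell type and of macrophages, went the other way, with 0.0852 and 1.71 CPM against 2.97 and 2.06 CPM. Clec9a and Xcr1 rest on few reads.

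Macrophage and monocyte genes as a list were not set apart. The median log2 fold change of the 30 genes was -0.08, with 7 (23.3%) lower and 6 (20%) higher in both aPD-1 tumors. These shares were close to the 21.0% and 20.9% of all genes. Ly6c2, a marker of inflammatory monocytes, had 57.1 and 17.8 CPM in the control tumors against 10.5 and 8.89 CPM (log2 fold change -1.95, standard error 0.74). Cx3cr1, a chemokine receptor of monocytes, had 28.2 and 34.7 CPM against 15.8 and 14.1 CPM (log2 fold change -1.07, standard error 0.41). These were the only members past an unadjusted p under 0.05, and in both the controls were the higher tumors. Adgre1, which encodes the macrophage marker F4/80, had 146 and 81.4 CPM against 51.1 and 44.9 CPM. Gpnmb, a glycoprotein of lipid-handling macrophages, had 23.2 and 43.8 CPM against 65.3 and 62.5 CPM. The macrophage mannose receptor gene Mrc1, named after its values were seen, had 30.7 CPM in control replicate 3, 142 CPM in control replicate 5, and 209 and 165 CPM in the aPD-1 tumors.

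Of 23 neutrophil genes tested, 22 had negative fold changes, the median log2 fold change was -2.44, and 6 (26.1%) were lower in both aPD-1 tumors, against 21.0% of all genes. Control replicate 3 was the highest tumor for 21 of them. The summed level of the list was 522 and 498 CPM in the control tumors against 179.5 and 218 CPM in the aPD-1 tumors, so both controls were high by that measure. In control replicate 5 most of the sum was Mmp9, a matrix protease that neutrophils and other cells make, which had 97.5 and 455 CPM in the control tumors and 132 and 126 CPM in the aPD-1 tumors and was named after its values were seen. S100a8, an abundant cytosolic protein of neutrophils, had 14.8 CPM there, 0.385 CPM in control replicate 5, and 0.488 and 0.795 CPM in the aPD-1 tumors. Lcn2, an iron-sequestering protein of neutrophils and epithelia, had 68 CPM there and 1.12 to 2.08 CPM in the other 3. Cxcl5, a neutrophil-attracting chemokine, had 2.60 and 0.128 CPM in the control tumors and 0 counts in both aPD-1 tumors. Against the limit of 3 counts over both aPD-1 libraries, its level was at least 62.0-fold lower than the control mean. That mean came almost wholly from control replicate 3. Without control replicate 3 the list's median turned to 0.37. Control replicate 3 was thus the highest of the 4 tumors for most neutrophil, type I interferon and chemokine genes and the lowest for most MHC class II genes, and the part that its cell content played in the other differences was not tested.

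Of 20 B cell and plasma cell genes tested, 11 were under 1 CPM in all 4 tumors. Igkc, the kappa light chain constant region, had 4.91 CPM in control replicate 3 and 0.283 to 0.370 CPM in the other 3 tumors. The list's median log2 fold change was -0.99, or -0.79 with genes at 0 in 1 group set to their limit.

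Endothelial genes leaned higher. Of 31 genes, 25 had positive fold changes, with a median log2 fold change of 0.62, and 10 (32.3%) were higher in both aPD-1 tumors, against 20.9% of all genes. Cldn5, the claudin of endothelial tight junctions, had 0.923 and 0.941 CPM in the control tumors against 4.39 and 3.54 CPM (log2 fold change 2.09, standard error 0.52). Vwf, the von Willebrand factor gene, had 11.4 and 6.43 CPM against 31.3 and 31.0 CPM (log2 fold change 1.8, standard error 0.49). Angpt2, a ligand of the endothelial receptor Tie2 that loosens vessels, had 12.4 and 13.9 CPM against 26.6 and 28.5 CPM (log2 fold change 1.07, standard error 0.46). In none of these 3 genes did the groups overlap, although the control tumors differed for Vwf. Pecam1, the general endothelial adhesion molecule, overlapped, with 45.9 and 39.5 CPM against 67.8 and 39.8 CPM. Without aPD-1 replicate 3, which was the highest tumor for 21 of the 31 genes, the median was 0.09.

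For fibroblast and pericyte genes the median log2 fold change was 0.42. Of 29, 12 (41.4%) were higher in both aPD-1 tumors and 3 (10.3%) lower, against 20.9% and 21.0% of all genes. Of the 29, 3 were higher at an unadjusted p under 0.05, against 1.39% of all genes. Fbn1, the fibrillin of elastic microfibrils, had 889 and 692 CPM against 1185 and 1271 CPM (log2 fold change 0.64, standard error 0.22). Ccn1 and Ccn2, matricellular proteins induced by mechanical and growth signals, were higher as well: Ccn2 had 8.68 and 3.89 CPM against 19.0 and 22.4 CPM. Pdgfra, a growth factor receptor of fibroblasts, had 254 and 239 CPM against 215 and 225 CPM. Collagens did not share the direction. Their median was -0.12 over 27 genes, and Col1a1, the main fibrillar collagen chain, had 563 and 410.0 CPM against 354 and 352 CPM. The basement membrane collagen Col4a1 had 97.0 and 129 CPM against 226 and 163 CPM, whereas Col18a1 had 273 and 390.2 CPM against 206 and 235 CPM.

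Tissue that lies outside the tumor differed between single libraries. Over 25 skeletal muscle genes the median log2 fold change was 1.57, and 8 were higher at an unadjusted p under 0.05, against 1.39% of all genes. However, aPD-1 replicate 3 was the highest tumor for 21 of the 25. Myh4, a fast muscle myosin, had 0.213 and 0.356 CPM in the control tumors, 24.9 CPM in aPD-1 replicate 3 and 1.18 CPM in aPD-1 replicate 4. The summed level of the list ran from 133 to 448 CPM in the control tumors and from 103 to 634 CPM in the aPD-1 tumors. Without aPD-1 replicate 3 the median was -0.39. Red blood cell genes were high in aPD-1 replicate 4 for all 9 tested. Hbb-bs, an adult beta globin, had 321 CPM there and 34.4 to 59.7 CPM in the other 3, and without that tumor the list's median was -0.70. Krt14, a skin keratin, had 0.327 CPM in control replicate 3 and 0 counts in the other 3. Whether muscle or blood in the aPD-1 tumors had a part in the other differences was not tested.

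**Figure D3:**
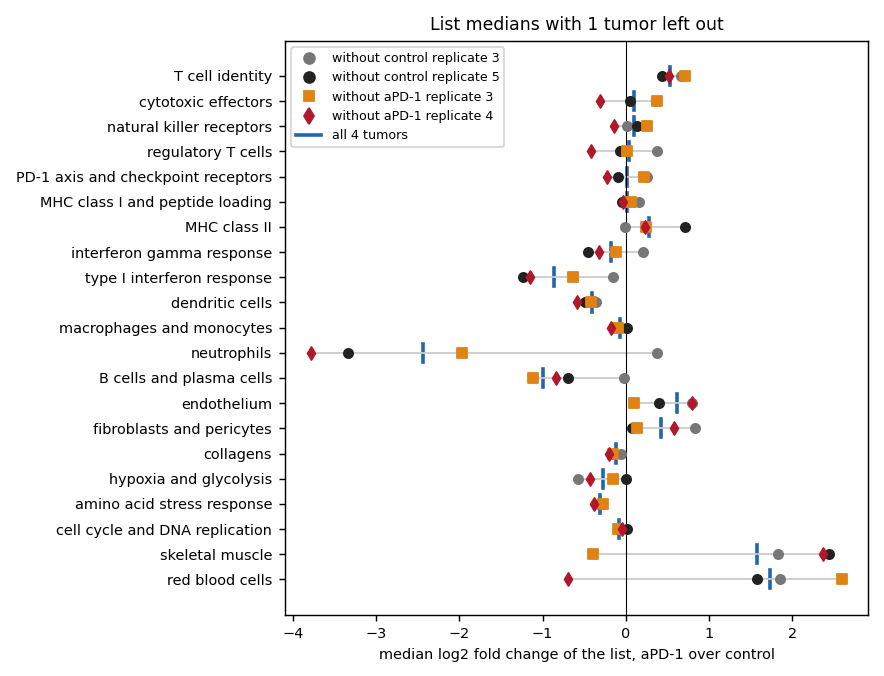
Median log2 fold change of each gene list (x axis) with all 4 tumors (blue bar) and with 1 control or aPD-1 tumor left out (symbols), each from a refit of all libraries that remained. The T cell identity, dendritic cell and amino acid stress medians kept their side of 0 in all 4 refits. The neutrophil, skeletal muscle and red blood cell medians crossed it when a single tumor was left out.

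Mki67, the proliferation antigen, had 1944 and 2169 CPM in the control tumors and 2062 and 2005 CPM in the aPD-1 tumors. Over 37 cell cycle and DNA replication genes the median log2 fold change was -0.09. In both aPD-1 tumors 11 (29.7%) were lower and 6 (16.2%) higher, against 21.0% and 20.9% of all genes. Mcm6, a subunit of the replicative helicase, had 379 and 415 CPM against 328 and 312 CPM. Hypoxia and glycolysis genes had a median of -0.28, with 29 of 33 negative. In both aPD-1 tumors 10 (30.3%) were lower and 0 higher, against 21.0% and 20.9% of all genes. Hk2, the inducible hexokinase, had 211 and 236 CPM against 117 and 165 CPM (log2 fold change -0.67, standard error 0.32). Control replicate 5 was the highest tumor for 29 of the 33. The median ran from -0.576 without control replicate 3, where 2 genes were lower at an unadjusted p under 0.05, to 0.004 without control replicate 5.

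Genes of the amino acid stress response, which ATF4 induces when amino acids run short, were lower in both aPD-1 tumors for 14 of 22 (63.6%), against 21.0% of all genes, and higher for 1 (4.55%). The median log2 fold change was -0.31, between -0.39 and -0.28 with any 1 library left out, and 0 passed an unadjusted p under 0.05. Without YH29407+aPD-1 replicate 4, a library of neither group that enters the fit, 8 were lower at that threshold. Fitted to the 4 libraries alone, edgeR gave 9 and DESeq2 10, and DESeq2 called 5 of these genes after adjustment: Asns, Trib3, Chac1, Aldh18a1 and Pck2. Over all genes, calls in either direction at the unadjusted threshold rose as well. They numbered 583 of 21523 in the main fit and 1494 of 20674 without that library. On the 4 libraries they numbered 2212 of 18696 with edgeR and 2482 with DESeq2. Calls thus rose over all genes too, though by a smaller share than in this list. Chac1, which degrades glutathione, had 10.6 and 9.79 CPM in the control tumors against 3.84 and 4.11 CPM (log2 fold change -1.36, standard error 0.60). Aldh18a1, an enzyme of proline synthesis, had 142 and 160.2 CPM against 107 and 117 CPM. In both genes the tumors of a group lay close together. Immediate early genes were high in aPD-1 replicate 4 for 18 of 25. Fosb, a subunit of the AP-1 transcription factor, had 1.31 and 0.798 CPM in the control tumors, 2.28 CPM in aPD-1 replicate 3 and 16.1 CPM in aPD-1 replicate 4, and without replicate 4 the list's median was -0.41.

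Beyond the lists, 278 genes were higher and 329 lower without overlap, with a fold of at least 2 and a mean of at least 1 CPM in the higher group. The 12 of smallest p in each direction, leaving out predicted and clone-named genes, all had an adjusted p of 1 in the edgeR quasi-likelihood test. All 24 kept their direction in each alternative setting, and their absolute log2 fold change was at least 0.85 with any 1 library left out. Since they were picked for their separation, their values are a description.

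Among the higher genes, Rab11fip1, which directs recycling endosomes (chr8:27138773-27174646), had 56.3 and 50.4 CPM in the control tumors against 159 and 170 CPM (log2 fold change 1.62, standard error 0.28). Patj, a scaffold of epithelial cell polarity (chr4:98395560-98719603), had 0.966 and 0.998 CPM against 35.3 and 28.6 CPM, a log2 fold change of 5.02 (standard error 0.99). In YH29407+aPD-1 replicate 4, Patj had 19.8 CPM, against 0.567 to 3.31 CPM in the other 5 tumors that received YH29407. Zbtb16, the transcription factor PLZF of innate-like lymphocytes, had 0.185 and 0.171 CPM against 4.09 and 1.65 CPM. Per1, a repressor of the circadian clock, had 41.4 and 41.1 CPM against 99.7 and 162 CPM (log2 fold change 1.67, standard error 0.35). The control tumors gave nearly the same level of Patj, Zbtb16 and Per1. Pak3, a kinase downstream of Rac and Cdc42, had 0 counts in both control tumors and 1.71 and 1.08 CPM with aPD-1, at least 65.6-fold higher against 3 counts over both control libraries. C1qtnf12 and C1qtnf9, secreted relatives of adiponectin, were higher: C1qtnf12 had 2.78 and 1.95 CPM against 20 and 11.5 CPM. The scaffold Akap12, which anchors protein kinase A, had 8.35 and 10.8 CPM against 28.3 and 30.7 CPM. The remaining higher genes were the netrin receptor Unc5a, the sulfotransferase Sult1a1, the apolipoprotein L gene Apol8 and Depp1, a target of FOXO factors, with log2 fold changes of 2.43, 2.29, 1.44 and 2.54.

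Among the lower genes, Olfml3, a secreted matrix protein, had 54.4 and 31.6 CPM in the control tumors against 14.8 and 12.9 CPM (log2 fold change -1.64, standard error 0.34). Slc1a4, a transporter of neutral amino acids, had 42.3 and 29.4 CPM against 15.6 and 17.1 CPM (log2 fold change -1.14, standard error 0.24). Ptprn, a protein of secretory granules, had 72.6 and 62.2 CPM against 25.5 and 27.4 CPM (log2 fold change -1.35, standard error 0.29). In each of these 3 the lowest control tumor had well above the level of the highest aPD-1 tumor. Gli1, the transcription factor and target of hedgehog signaling, had 18.3 and 20.6 CPM against 6.8 and 8.46 CPM. Fgf21, a hormone-like growth factor that ATF4 can induce, had 0.668 and 2.08 CPM against 0.0472 and 0.0960 CPM. Asb2, a ubiquitin ligase subunit, had 1.73 and 1.05 CPM against 0.173 and 0.192 CPM. Bst2 was also among the 12. The others were Nutm1, the pseudogene Vmn2r-ps87, the apoptosis inhibitor Faim2, the TGF-beta family member Gdf3 and the phospholipase Pla2g5, with log2 fold changes of -2.00, -2.64, -3.33, -1.53 and -1.17.

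**Figure D4:**
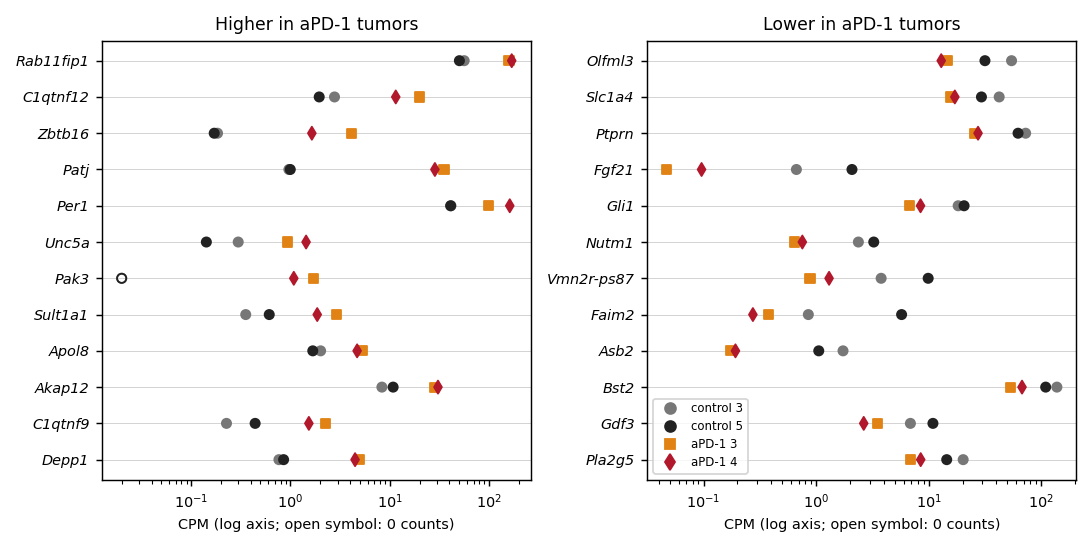
CPM (log axis) of the 12 higher and 12 lower genes in the 4 tumors, control replicates as circles and aPD-1 replicates as squares and diamonds. An open circle marks Pak3 at 0 counts in the control tumors. In every row the 2 aPD-1 symbols lie on 1 side of both control symbols, as the choice of the genes requires.

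The tumors given YH29407 allow the aPD-1 difference to be measured a second time, in 3 YH29407+aPD-1 against 3 YH29407 tumors, with no library in common. YH29407+aPD-1 replicate 4 stood apart from all other libraries, with 2.28% of its counts in mitochondrial mRNAs against 0.413% to 0.560%. The test of whether the 2 differences differ (edgeR, Benjamini-Hochberg) called 0 genes, with a smallest adjusted p of 0.144. At an unadjusted p under 0.05 it gave 1328 genes (6.17%), and DESeq2 on the 10 libraries called 184. For T cell identity genes the median log2 difference was 0.54 without YH29407 and 1.68 with it. The mean log2 CPM of these genes was 0.09, 1.33 and 0.03 in YH29407 replicates 1, 3 and 4. With both agents it was 2.55, 2.59 and 1.24 in replicates 2, 3 and 4, so replicate 4 lay below YH29407 replicate 3 and the groups overlapped. For type I interferon genes the median log2 difference was -0.87 without and -0.50 with YH29407. Their mean log2 CPM was 6.24 to 6.81 in the YH29407 tumors, and with both agents it was 6.46 and 6.32 in replicates 2 and 3 and 4.66 in replicate 4, so only that library lay below the YH29407 tumors. For dendritic cell genes it was -0.41 without and 1.04 with it, and 7 of the 23 differed between the settings at an unadjusted p under 0.05. Here too YH29407+aPD-1 replicate 4 lay apart from its group, with a mean log2 CPM of 2.09 against 2.99 and 3.27, and within the 2.05 to 2.25 of the YH29407 tumors. Flt3 had 1.56, 1.96 and 1.73 CPM with YH29407 and 4.11, 5.18 and 3.04 CPM with both agents, so aPD-1 tumors were lower without and higher with YH29407 (difference of log2 fold changes -2.38, standard error 0.46). Apol8, Ptprn and C1qtnf12 had the smallest p among named genes in this test. Apol8 was higher with aPD-1 alone but had 8.17, 10.5 and 8.77 CPM with YH29407 and 2.32, 1.39 and 1.85 CPM with both agents (difference 3.74, standard error 0.43, adjusted p = 0.144). Ptprn went the other way, with 18.2, 28 and 23.9 CPM against 78.9, 50.2 and 77.6 CPM (difference -2.91, standard error 0.38, adjusted p = 0.204).

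**Figure D5:**
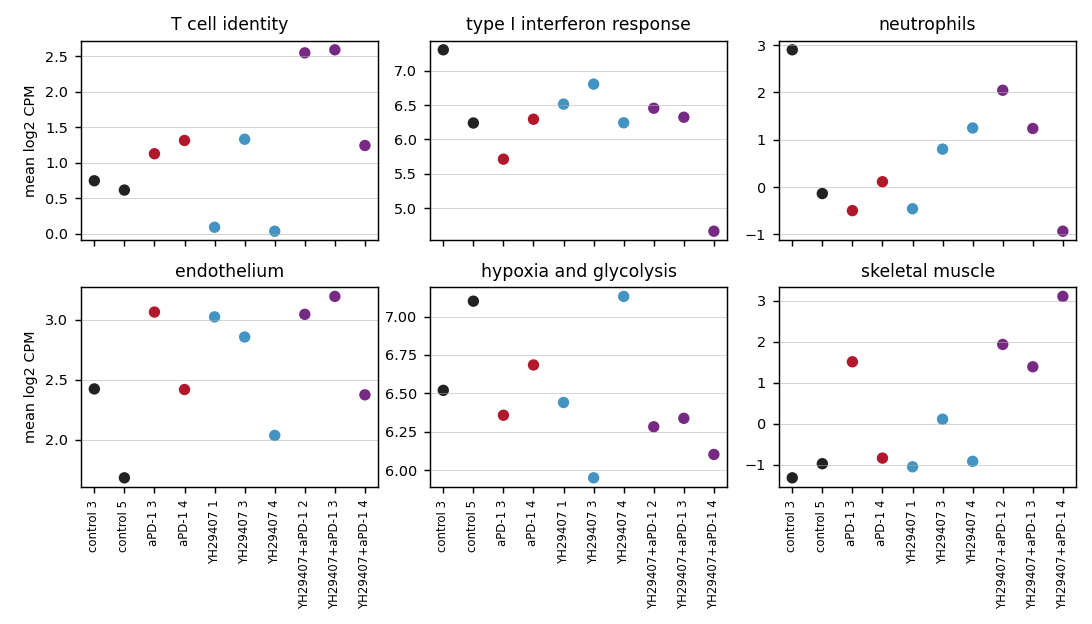
Mean log2 CPM over the genes of 6 lists (y axes) in each of the 10 tumors (x axis), with control in black, aPD-1 in red, YH29407 in blue and YH29407+aPD-1 in purple. Both aPD-1 tumors lie above both controls for T cell identity genes, control replicate 3 is highest for type I interferon and neutrophil genes, and aPD-1 replicate 3 lies far above aPD-1 replicate 4 for skeletal muscle genes.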

How the data were processed

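RNA of formalin-fixed, paraffin-embedded MC38 tumors was prepared with the SureSelectXT RNA Direct kit (the labels also name a SMARTer kit), and paired-end reads of 100 bp were trimmed with Trimmomatic, aligned to mm10 with HISAT2 and quantified with StringTie by the authors. The deposited table gives, for 45777 genes, whole-number read counts without normalization, and FPKM and TPM that the authors computed. The TPM were not used. The deposited code was not used and holds no measurements. Whether counting used strand is not given in the sources used here.

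Counts of all 10 libraries, grouped by the treatment labels, were scaled by TMM, filtered by group (21523 genes) and fitted with edgeR's quasi-likelihood model with 1 mean per group, and aPD-1 was contrasted with control. The study's methods name DESeq2, which was an alternative here. The biological coefficient of variation was 0.502. P-values were adjusted over all genes tested (Benjamini-Hochberg, threshold 0.05). CPM are the deposited counts scaled by TMM. A 2-sided exact permutation test of 2 against 2 tumors cannot give a p under 0.333, so only the model's p-values are given. Lists were described by counts and medians, beside the same over all genes tested, and a gene with 0 counts in a group was compared with 3 counts over that group. Intervals of counting error alone were not computed. Named genes were the antibody's target and its ligands, 12 higher and 12 lower genes of smallest p without overlap, with a log2 fold change of at least 1 and at least 1 CPM, up to 4 genes of smallest p in each list described, defining genes of cell types, and 3 genes of smallest p in the test against the YH29407 setting. Of the defining genes, 2 are not reported here. The members and lists were chosen with earlier results of these data known. The procedure was tested on simulated data. Alternatives were other normalization factors, no filter, fits of the 4 libraries, DESeq2, limma-voom, limma on FPKM, other fold thresholds and each library left out. Promoters came from a RefSeq table, 1 window a gene. The tools were DESeq2 1.42.0, limma 3.58.1 and edgeR 4.0.16 under R 4.3.3.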

Additional observations from a re-analysis of the deposited data

Results flagged for a closer look

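For 17 of the 130 genes named by the rules, both aPD-1 tumors lay on 1 side of both control tumors while all 3 YH29407+aPD-1 tumors lay on the opposite side of all 3 YH29407 tumors. For 19 of the 130 the tumors lay apart in the same direction in both settings. Over all genes tested the opposite direction was found for 685 (3.18%) and the same direction for 1132 (5.26%). Many of the 130 were picked for their separation in the aPD-1 comparison or for their p in this test, so these counts say nothing of the named genes as a group. The values that follow are the log2 fold change of aPD-1 without YH29407 minus that with YH29407, from the edgeR fit, in which 0 genes passed an adjusted p of 0.05. The difference was positive, higher with aPD-1 alone and lower with aPD-1 added to YH29407, for Apol8 (3.74), C1qtnf12 (3.61), Gpnmb (3.59) and Angpt2 (2.16). It was negative for the dendritic cell receptor Flt3 (-2.38) and the matrix and secreted genes Olfml3 (-2.48), Col1a1 (-2.09) and Col18a1 (-1.19). It was also negative for Ptprn (-2.91), Gli1 (-2.13), Nutm1 (-3.40), Asb2 (-4.90) and Ltf (-9.89, with 0 counts in both aPD-1 tumors, so that its size depends on the prior count). The immediate early genes Dusp2 (-1.52) and Egr2 (-2.75) and the replication genes Mcm6 (-0.56) and Mcm3 (-0.48) were negative as well. YH29407+aPD-1 replicate 4, which stood apart, is 1 of the 3 tumors in each of these values. For each gene it lay on the same side of the YH29407 tumors as the rest of its group, as the choice of genes requires. Its part in the size of these values was not examined gene by gene. Groups of 2 and 3 tumors were too small for a check of single tumors against their group.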

How the results depend on the processing

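No paired analysis was possible because the control and aPD-1 groups share only replicate number 3. Counts of genes and list medians under the alternatives gave 521 values. Of these, 468 stayed within 1.5 times the count or within the spread between replicates, and 53 moved. Refits without a YH29407 or YH29407+aPD-1 tumor keep every control and aPD-1 library, so their list medians could hardly move. The spread used as a limit was also wide in some lists (log2 1.55 for neutrophils, 1.56 for red blood cells). The 468 are therefore no measure of stability. The count past an adjusted p of 0.05 was 0 to 2 with 1 library left out: 2 without control replicate 3 (Gm46829 and Mcmdc2) and 2 without YH29407+aPD-1 replicate 4 (Gm41396 and Patj). It was 55 with DESeq2 on the 10 libraries, 673 on the 4, and 1 with limma on log2(FPKM + 1) (Fkbp6). DESeq2 on the 10 libraries called 23 of the 24 genes named for their separation, which were picked from these same libraries. Genes past an unadjusted p of 0.05 and a fold of 2 numbered 158 to 334 higher and 162 to 353 lower with 1 library left out, with the fewest higher, 158, without aPD-1 replicate 3 and the most lower, 353, without YH29407+aPD-1 replicate 4. They numbered 384 higher and 342 lower with edgeR on the 4 libraries, 38 and 24 with limma on log2(FPKM + 1), and 152 and 113 on log2(FPKM + 0.1). Lower genes numbered 340 and 366 with DESeq2 on the 10 and the 4 libraries and 138 with limma-voom, and higher genes 145 at a log2 fold of 2. The test against the YH29407 setting called 0 to 7 genes with 1 library left out (7 without YH29407 replicate 3, 1 without YH29407+aPD-1 replicate 4) and 184 with DESeq2. The cause of these differences between tools was not tested.

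List medians (log2) with 1 library left out ranged from 0.43 to 0.71 for T cell identity, -0.31 to 0.37 for cytotoxic effectors, -0.42 to 0.38 for regulatory T cells, -0.22 to 0.25 for the PD-1 axis, -0.14 to 0.25 for natural killer receptors, -0.46 to 0.21 for interferon gamma, -1.24 to -0.15 for type I interferon, -0.042 to 0.158 for MHC class I, -0.012 to 0.713 for MHC class II, -0.576 to 0.004 for hypoxia and glycolysis, -0.58 to -0.35 for dendritic cells, -0.39 to -0.28 for the amino acid stress response, -0.198 to -0.064 for collagens, -0.179 to 0.013 for macrophages, -3.78 to 0.37 for neutrophils, -1.11 to -0.027 for B cells, 0.094 to 0.794 for endothelium, 0.072 to 0.825 for fibroblasts, -0.41 to 0.41 for immediate early genes, -0.101 to 0.017 for the cell cycle, -0.39 to 2.44 for muscle, -0.70 to 2.60 for red blood cells and -0.024 to 0.353 for MC38 and colon epithelium. On log2(FPKM + 1), which shrinks low genes by its construction, they were 0.23 for T cell identity, -0.12 for dendritic cells, -0.69 for neutrophils, -0.073 for B cells, 0.27 for muscle and 0.058 for MC38 and colon epithelium. The B cell median was -0.18 on log2(FPKM + 0.1), -0.58 with limma-voom, -0.18 with edgeR on the 4 libraries and -0.185 with DESeq2 on them, and the cell cycle median was -0.044 with upper-quartile factors. Those factors shifted all genes by 0.04.

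Of the 130 named genes, 108 kept their direction throughout, including the 24 named for their separation, whose choice made this likely. With 1 library left out, log2 fold changes ranged from -0.79 to 0.26 for Cd274, -0.62 to 0.11 for Pdcd1lg2, -2.42 to 0.23 for Ccl4, -2.92 to 0.019 for Ccl3, -0.037 to 2.56 for Ctla4, -0.021 to 0.508 for Tapbpl, -0.61 to 0.22 for H2-T23, -3.34 to 0.47 for Mmp8, -0.70 to 3.50 for Alas2, -0.80 to 2.60 for Hbb-bt, -0.71 to 2.52 for Hbb-bs, -0.68 to 2.40 for Hba-a1, -0.27 to 0.81 for Cd4, -0.92 to 0.57 for Foxp3, -0.14 to 0.20 for Ncr1, -0.73 to 0.71 for Gzmb, -0.54 to 0.73 for Ifng, -0.35 to 1.36 for Cxcl9, -4.53 to 0.73 for S100a8, -0.10 to 0.67 for Pecam1 and -0.095 to 0.063 for Mki67. Ifng was also positive with upper-quartile factors (0.009), limma-voom (0.10), log2(FPKM + 1) (0.001) and log2(FPKM + 0.1) (0.059), and H2-K1 (0.006) and Mki67 (0.028) with upper-quartile factors. A refit that leaves a group with 1 tumor assumes that it varies like the other groups. At these depths, genes far under 1 CPM rest on few reads.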

Other observations

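Circadian clock genes were looked at after Per1 had come up among the higher genes, so they carry no test. Of 20 clock genes, Per1 itself included, both aPD-1 tumors lay above both control tumors for 9 (45.0%) and below for 2 (10%). The shares over all genes were 20.9% and 21.0%. The repressors of the clock were among the higher ones. Per2 had 10.8 and 8.04 CPM in the control tumors and 23.1 and 25.9 CPM in the aPD-1 tumors, Cry1 had 35.2 and 34.5 against 60.5 and 51.4 CPM, and Cry2 had 16.2 and 14.4 against 25.7 and 25.3 CPM. The activators Arntl and Clock were the lower ones: Arntl had 57.4 and 71.5 CPM against 38.2 and 46.3 CPM, and Clock had 179.9 and 200.1 against 157 and 165 CPM. Nr1d1 and Nr1d2, nuclear receptors of the same clock, overlapped between the groups. The hours at which tumors were taken are not given in the labels.

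A list of 15 genes known to be induced by glucocorticoids was also written after Zbtb16 and Per1 had been seen. It carries no test either. Of these, 8 (53.3%) were higher in both aPD-1 tumors and 0 lower, against 20.9% and 21.0% of all genes. Klf9 had 2.77 and 4.65 CPM in the control tumors against 5.59 and 10.7 CPM, Fkbp5 had 121 and 113 against 164 and 141 CPM, and Tsc22d3 had 28.2 and 25.3 against 31.7 and 39.0 CPM. Hedgehog pathway genes had no shared direction. Of 13 tested, 5 (38.5%) were higher and 5 (38.5%) lower in both aPD-1 tumors, against 20.9% and 21.0% of all genes. Ptch1, a receptor and target of the pathway, was lower in both, like Gli1. It had 89.8 and 90.6 CPM in the control tumors against 65.1 and 79.4 CPM.

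The smallest p-values of the whole comparison belonged to genes at 0 in 1 group. The noncoding RNA Gm41396 had 0 counts in both control tumors and 14.2 and 12.9 CPM in the aPD-1 tumors, at least 635-fold higher against 3 counts over both control libraries. Plcxd1, named for a phospholipase C domain, had 0.696 and 0.741 CPM in the control tumors and 0 counts in both aPD-1 tumors, at least 32.7-fold lower. Both had an adjusted p of 0.117 in the edgeR quasi-likelihood test.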
